A study of Homo sapiens with 12 samples.

Results

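GDF15 (growth differentiation factor 15, ENSG00000130513) is a secreted protein of the TGF-beta superfamily whose mRNA is known to rise in cells under stress. The gene was followed here as 1 of 20323 genes counted in A549 cells, a human lung adenocarcinoma line. It was chosen by its symbol, with earlier results of these data known and with its values in all groups in view, so its own values are given as a description without a test. Parental A549 cells are known to carry a truncating mutation in STK11, the gene that encodes the kinase LKB1. The 4 groups held 3 libraries each: LKB1-deficient cells pretreated with high-dose AA, LKB1-deficient cells pretreated with PBS, LKB1-intact cells pretreated with high-dose AA and LKB1-intact cells pretreated with PBS. The genotype label of the intact cells reads WT, and the series' design text describes them as having intact LKB1. The sample titles write con for the deficient cells and VitC for AA, that is ascorbic acid. The sources used here give neither how each cell population was made, nor whether it is 1 clone, nor the dose and duration of AA. The labels do not say whether a group's 3 libraries stem from separate cultures, so p-values below measure spread that may be only technical.

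GDF15 protein is made as a precursor, cleaved by proprotein convertases such as furin and secreted as a dimer. In the body it acts through GFRAL, a receptor of the hindbrain that signals with the tyrosine kinase RET and is linked to loss of appetite and body weight. Transcription of GDF15 is known to be driven by the integrated stress response, in which phosphorylation of the initiation factor eIF2 raises ATF4 and CHOP (gene DDIT3), and separately by p53, EGR1, KLF4 and SP1. Serum GDF15 is used as a marker of mitochondrial disease and is often raised in patients with cancer.

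In the GENCODE 29 annotation of GRCh38, GDF15 lies on the forward strand of chromosome 19 at chr19:18374731-18389176. Its main transcript runs from 18386158 to 18389176, with an exon of 309 bases, an intron of 1819 bases that holds the microRNA gene MIR3189, and an exon of 891 bases. The spliced transcript is 1200 bases long, and the length implied by the deposited counts and FPKM was 1200 to 1210 bases in the 12 libraries. No other annotated gene overlapped it. The sources used here do not name the authors' genome build.

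The 250 bases before the start of GDF15 are printed below from RefSeq (GRCh38.p14, chr19:18385908-18386157, forward strand). Some of the factors described below are reported to act on the GDF15 promoter, not necessarily within this stretch. The counts measure mRNA level, to which transcription and mRNA stability both contribute. The same stretch is given for 2 genes picked after their values were seen, as examples of different responses: ASNS (chr7:97872409-97872658, reverse strand), a classic ATF4 target, and CDKN1A (chr6:36678464-36678713, forward strand), a classic p53 target. Capitals mark every match to a searched motif.
GDF15: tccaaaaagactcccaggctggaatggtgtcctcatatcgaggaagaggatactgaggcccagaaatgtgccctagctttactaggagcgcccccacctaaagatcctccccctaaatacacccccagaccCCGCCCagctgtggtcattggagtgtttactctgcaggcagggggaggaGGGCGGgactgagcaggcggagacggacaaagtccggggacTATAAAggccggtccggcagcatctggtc
ASNS: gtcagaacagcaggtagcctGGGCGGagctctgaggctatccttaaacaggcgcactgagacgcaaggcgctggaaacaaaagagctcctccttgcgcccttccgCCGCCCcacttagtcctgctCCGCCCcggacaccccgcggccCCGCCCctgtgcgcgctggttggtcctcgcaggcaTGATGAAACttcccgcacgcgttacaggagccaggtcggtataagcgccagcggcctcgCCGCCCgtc
CDKN1A: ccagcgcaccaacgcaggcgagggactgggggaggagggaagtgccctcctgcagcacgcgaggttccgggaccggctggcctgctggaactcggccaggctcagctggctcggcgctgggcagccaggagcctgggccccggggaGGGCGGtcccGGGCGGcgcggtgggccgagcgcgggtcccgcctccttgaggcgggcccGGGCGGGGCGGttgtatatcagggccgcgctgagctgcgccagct

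Both strands of the 300 bases from 250 before to 50 after each start were searched. The motifs were the C/EBP-ATF element TGATGNAAN, the cyclic AMP element TGACGTCA, the AP-1 site TGANTCA, the GC box GGGCGG, the EGR1 element GCGNGGGCG, the E-box CACGTG, the antioxidant response element TGACNNNGC, the TATA box TATAAA and the p53 decamer. The GDF15 window held 2 GC boxes, which begin 119 and 70 bases before the start, and a TATA box that begins 29 bases before it. A GC box was present in 44.9% and TATAAA in 11.6% of the 34943 RefSeq promoter windows. The letters of the other motifs were not found in this window. The ASNS window held a C/EBP-ATF element 68 bases before its start, a match present in 3.62% of windows, and 5 GC boxes. The CDKN1A window held 4 GC boxes, of which 2 overlap, and no other match. The EGR1 element overlaps the GC box in its last letters, so these motifs are not independent. The other shares were 1.84% for TGACGTCA, 7.72% for TGANTCA, 9.41% for GCGNGGGCG, 7.23% for CACGTG, 13.3% for TGACNNNGC and 6.64% for the p53 decamer. A match describes the letters only, and sites outside these windows, for p53 or any other factor, were not searched.

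GDF15 mRNA was highest in AA-treated deficient cells, followed by AA-treated intact cells, PBS-treated deficient cells and PBS-treated intact cells. As CPM, that is estimated counts scaled to a common library total with TMM factors, it measured 198.5, 190.2 and 190.5 in AA-treated deficient cells and 20.8, 18.5 and 16.5 in PBS-treated deficient cells. In intact cells it measured 62.4, 57.0 and 60.2 CPM under AA and 13.8, 13.1 and 13.03 CPM under PBS. No library of any group reached into the range of the next group, so the 4 groups stood in the same order library by library. The share of all tested genes with such separation was not counted. The group means were 193 ± 4.69 CPM in AA-treated deficient cells, 18.6 ± 2.18 CPM in PBS-treated deficient cells, 59.9 ± 2.69 CPM in AA-treated intact cells and 13.3 ± 0.418 CPM in PBS-treated intact cells (SD, n = 3 each). The spread was widest in PBS-treated deficient cells, where the SD was 11.7% of the mean, and lay between 2.43% and 4.50% in the other groups. These values rest on 3474 to 4139 and 268 to 340 estimated counts per library in deficient cells under AA and under PBS. In intact cells they rest on 1026 to 1163 and 219 to 242 counts.

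The smallest gap was between the PBS groups. The lowest deficient library under PBS, replicate 3, had an exact Poisson 95% interval of 14.6 to 18.6 CPM, and the highest intact library under PBS, replicate 1, an interval of 12.01 to 15.7 CPM. These intervals cover counting error only, and they overlap although the measured values do not.

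**Figure D1:**
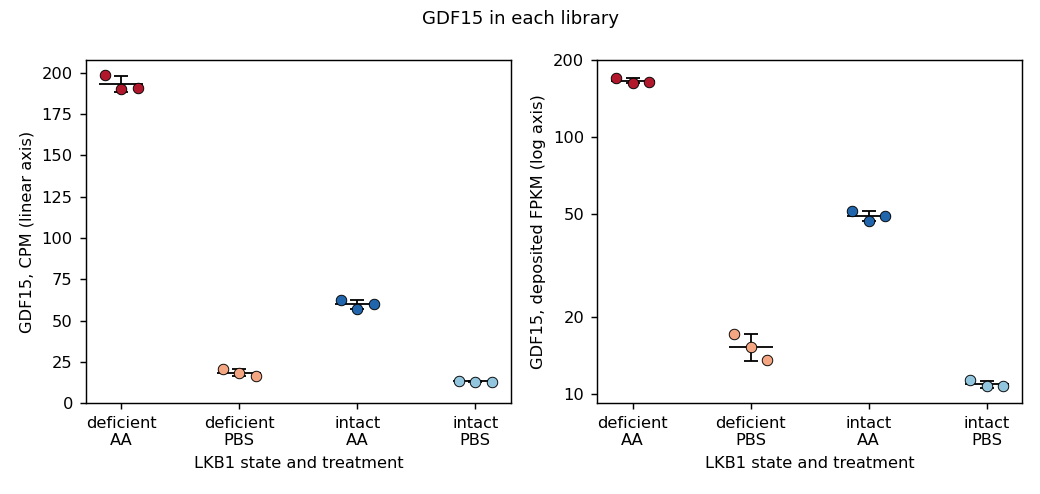
GDF15 in each of the 12 libraries, as CPM on a linear axis (left) and as the authors' FPKM on a log axis (right), by LKB1 state and treatment. Points are libraries, and bars are the group mean and SD of 3 libraries; the AA libraries of deficient cells lie between 190.2 and 198.5 CPM and those of intact cells between 57.0 and 62.4 CPM.

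Per length of transcript, the deposited FPKM gave the same order. GDF15 had 165.5 ± 3.70 FPKM in AA-treated deficient cells, against 15.3 ± 1.82 FPKM in PBS-treated deficient cells, and 49.4 ± 2.13 FPKM in AA-treated intact cells, against 10.9 ± 0.355 FPKM in PBS-treated intact cells (SD, n = 3 each). Among 12718 tested genes ranked by mean FPKM, GDF15 stood at rank 493 in AA-treated deficient cells, beside MARS1 and MRPL12. It stood at rank 5288 in PBS-treated deficient cells, rank 1897 in AA-treated intact cells and rank 6421 in PBS-treated intact cells. The mRNA lay nearer the middle of the ranking under PBS, at percentile 58.4 in deficient cells and 49.5 in intact cells. Under AA it stood at percentile 96.1 in deficient cells and 85.1 in intact cells.

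In deficient cells GDF15 was 10.4-fold higher under AA than under PBS (log2 difference 3.37 ± 0.06 SE). Over all pairs of an AA and a PBS library of deficient cells the ratio ran between 9.13 and 12.05. In intact cells the AA level was 4.51-fold the PBS level (log2 difference 2.17 ± 0.07 SE), and the pairs gave ratios between 4.14 and 4.79. The ratio of AA to PBS was 2.30 times as large in deficient as in intact cells (log2 difference of differences 1.20 ± 0.10 SE). On the linear scale the gain was 174 CPM in deficient cells and 46.6 CPM in intact cells. Under AA alone, deficient cells had 3.23-fold the GDF15 of intact cells (log2 difference 1.69 ± 0.05 SE). Under PBS they had 1.40-fold (log2 difference 0.49 ± 0.08 SE), and this value ranged between 0.40 and 0.57 when each library in turn was left out. These comparisons share libraries. In bulk RNA, more mRNA per cell and more cells that express the gene cannot be told apart.

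Most genes moved under AA, which sets the scale for these differences. By edgeR's quasi-likelihood test with Benjamini-Hochberg adjustment at 0.05, 9465 of 12718 genes (74.4%) had a call for AA against PBS in deficient cells, with 37% up and 37.4% down. In intact cells 8872 genes (69.8%) had one, 34.5% up and 35.2% down. For the difference in AA effect 5673 genes (44.6%) had one, 21.6% with the higher and 23% with the lower effect in deficient cells. Of the genes called for the difference, 48.4% were higher in deficient cells, a share that was 60.3% with limma on log2(FPKM + 1). Only 35 genes (0.275%; 0.055% up and 0.22% down) were called between deficient and intact cells under PBS. That count was 6 without deficient PBS replicate 1 or intact PBS replicate 2, 14 without deficient PBS replicate 3, 9 without intact PBS replicate 1 and 15 without intact PBS replicate 3. Under AA 7501 genes (59%; 28.7% up and 30.3% down) were called between the genotypes, of which 48.7% were higher in deficient cells, against 60.3% on log2(FPKM + 1). With a further minimum of 1 on the log2 scale the shares called were 14.5% for AA in deficient cells, 10.1% for AA in intact cells, 3.54% for the difference, 0.0472% between genotypes under PBS and 4.64% between genotypes under AA. Called in opposite directions under AA in the genotypes, and also for the difference, were 751 of all tested genes (5.91%) and 21 of the 139 tested list members reported here (15.1%). The median log2 change over all tested genes was 0.01 under AA in either genotype, with a median SE of 0.07.

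Ranked by the log2 AA effect in deficient cells, GDF15 stood at rank 51 of all tested genes. Among the 9730 genes with a mean log2 CPM of at least 3 it stood at rank 2, behind the immediate early transcription factor FOS (log2 difference 4.54) and ahead of the nuclear receptor NR4A2 (3.35). In intact cells it stood at rank 13 of the 9730, between PNRC1 (2.30) and the cytokine signalling inhibitor SOCS3 (2.17), with the cyclin kinase inhibitor CDKN1A (2.15) next. Among the same 9730 genes it stood at rank 69 for the difference in AA effect, at rank 20 for deficient against intact cells under AA, and at rank 5 for the same comparison under PBS. Over all 12718 tested genes it stood at rank 130 for AA in intact cells, 232 for the difference, 73 between the genotypes under AA and 217 under PBS.

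The libraries held 16055534 to 20306129 estimated counts. STK11, the gene behind the labels, averaged 5.79 ± 0.862 CPM in deficient cells under PBS, against 24.5 ± 0.917 CPM in intact cells under PBS (SD, n = 3 each), a log2 difference of -2.08 ± 0.11 SE (edgeR adjusted p = 1.48e-10). Of 5 epithelial markers KRT8 and KRT18 were abundant, EPCAM and CDH1 low, and KRT19 did not pass the filter on low counts. None of 5 leukocyte markers passed it. Of 4 endothelial markers CDH5 passed it, and of 5 fibroblast markers COL1A1 and PDGFRB passed it. The summed epithelial markers ran between 1767 and 1805 CPM in AA-treated deficient cells and between 1926 and 2102 CPM in PBS-treated deficient cells. They ran between 3333 and 3466 CPM in AA-treated intact cells and between 2167 and 2255 CPM in PBS-treated intact cells. This sum was lower under AA in deficient cells and higher under AA in intact cells. The endothelial sum, nearly all CDH5, ran between 0.719 and 1.68 CPM in AA-treated deficient cells, 6.56 and 9.22 CPM in PBS-treated deficient cells, 3.21 and 4.29 CPM in AA-treated intact cells and 9.19 and 10.7 CPM in PBS-treated intact cells. The leukocyte sum stayed at or below 1.60 CPM in every library, and the fibroblast sum lay between 11.3 and 17.0 CPM. CD3E, KDR and COL1A2 were at 0 in all libraries. The part of these markers in the GDF15 values was not tested.

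The machinery that receives GDF15 was at or near 0 in these cells, whereas part of the machinery that processes it was well expressed. GFRAL, the GDF15 receptor, had 0 estimated counts in all 12 libraries. By counting error alone, 0 in a single library allows up to 3 expected counts there, and 0 in all 12 allows fewer per library. Its co-receptor RET had 23 counts over all libraries and did not pass the filter. The GDNF-family receptors GFRA1 to GFRA4, relatives of GFRAL, had 0 to 15 counts each over all libraries. MMP14, a membrane protease reported to cleave GFRAL, averaged 18.0 CPM in deficient cells under AA, against 28.1 CPM under PBS, and fell (log2 change -0.64, edgeR adjusted p = 9.63e-07). In intact cells MMP14 averaged 33.0 CPM under AA, against 28.2 CPM under PBS (log2 difference 0.22, edgeR adjusted p = 0.0194). That value missed the threshold without intact AA replicate 1 (0.0925), intact AA replicate 3 (0.0588) or intact PBS replicate 1 (0.125).

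Of 8 proprotein convertases, 6 passed the filter. In deficient cells 2 rose and 3 fell (83.3%, against 74.4% of all genes), and in intact cells 2 rose and 2 fell (66.7%, against 69.8%). For the difference in AA effect 1 was higher and 1 lower in deficient cells (33.3%, against 44.6%). With 6 genes these shares lie near those of all genes. PCSK1, the convertase of neuroendocrine secretory granules, averaged 14.7 ± 1.08 CPM in AA-treated deficient cells, against 2.41 ± 0.455 CPM in PBS-treated deficient cells, and rose by 2.60 on the log2 scale (SE 0.15, edgeR adjusted p = 1.41e-12). In intact cells it averaged 5.08 ± 0.531 CPM under AA, against 2.42 ± 0.338 CPM under PBS, and rose by 1.06. The PCSK1 effect differed between the genotypes by 1.54 (SE 0.24, edgeR adjusted p = 1.68e-05). The more abundant furin (FURIN) fell by 0.28 in deficient cells and by 0.26 in intact cells, to 87.4 and 90.6 CPM under AA, against 106 and 109 CPM under PBS. PCSK6, which cleaves ligands of the same superfamily, fell by 0.32 and 0.49, and MBTPS1, which cleaves ATF6 in the Golgi, fell by 0.47 in deficient cells and had a log2 difference of 0.02 in intact cells. PCSK4, the other member counted as higher in both genotypes, stood at no more than 1.78 CPM on average in any group and passed the filter only through its AA libraries, where it was high.

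Among other ligands of the TGF-beta superfamily some rose, some fell and most of those listed did not pass the filter or the test. Of 36, 18 passed the filter, and 5 of these, INHBE, ARTN, GDF1, GDF9 and NRTN, reached its minimum in fewer than 3 PBS libraries, so that their AA libraries decided that they were tested. In deficient cells 6 rose and 3 fell, which is 50% of those tested against 74.4% of all genes, and their median log2 change was 0.08. In intact cells 6 rose and 2 fell (44.4%, against 69.8% of all genes), with a median of 0.31, and 4 were called for the difference in AA effect (22.2%, against 44.6%), or 2 without deficient PBS replicate 2 or intact AA replicate 3. INHBE, the activin beta E subunit and a known ATF4 target, averaged 2.26 ± 0.273 CPM in AA-treated deficient cells, against 0.245 ± 0.0621 CPM in PBS-treated deficient cells. In intact cells INHBE averaged 0.346 CPM under AA, against 0.198 CPM under PBS. INHBE is counted above as risen in deficient cells and as called for the difference. It reached the minimum of the filter only in AA-treated deficient cells, the group where it was high, so those calls carry no weight and its levels are given without a test. BMP2 fell by 0.33 in deficient cells and by 0.41 in intact cells, and BMP4 fell by 0.80 in deficient cells. TGFB1, the founding ligand of the family, averaged 86.1 CPM in deficient cells under AA, against 85.2 CPM under PBS, and 95.9 CPM in intact cells under AA, against 90.5 CPM under PBS. Neither TGFB1 difference passed the test (log2 differences 0.02, SE 0.04, and 0.08, SE 0.04).

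Other secreted proteins known to answer stress included genes that rose in deficient cells and fell in intact cells and genes that rose in both. Of 15 listed, 11 passed the filter. In deficient cells 10 were higher under AA and 1 fell, the median log2 change being 1.60, against 0.01 over all genes, and all 11 were called, against 74.4% of all genes. In intact cells 4 rose and 6 fell (90.9%, against 69.8%), with a median of -0.18. The test of the difference in AA effect called 8 higher and 1 lower in deficient cells (81.8%, against 44.6%), with a median of 1.12. ADM, the vasodilator adrenomedullin, rose to 135 CPM in AA-treated deficient cells, against 43.2 CPM under PBS, and to 170 CPM in AA-treated intact cells, against 48.8 CPM under PBS. Its effects were 1.64 and 1.80, and their difference did not pass the test (-0.16, SE 0.07, edgeR adjusted p = 0.0712). ANGPTL4, an inhibitor of lipoprotein lipase, rose by 2.05 in deficient cells and by 1.97 in intact cells (difference 0.09, SE 0.24, edgeR adjusted p = 0.796). VEGFA, the angiogenic growth factor, rose by 1.60 and 0.48, a difference of 1.12 (SE 0.07, edgeR adjusted p = 2.78e-11). ADM2, a relative of adrenomedullin and an ATF4 target, averaged 8.11 ± 0.343 CPM in AA-treated deficient cells, against 0.978 ± 0.238 CPM under PBS. In intact cells ADM2 averaged 0.702 CPM under AA, against 1.29 CPM under PBS, so its effects differed by 3.91 (SE 0.41, edgeR adjusted p = 9.81e-08). FGF21, which is often measured with GDF15 as a marker of mitochondrial stress, had 10 counts over all 12 libraries and was not tested.

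**Figure D2:**
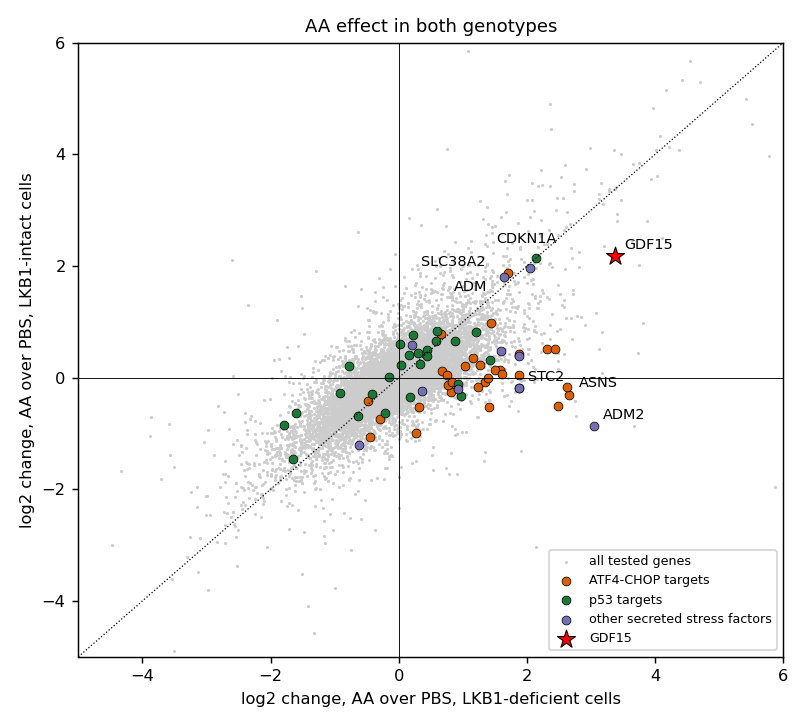
The log2 change under AA in LKB1-intact cells (vertical axis) against that in LKB1-deficient cells (horizontal axis) for all tested genes except 2 not reported here, with GDF15 as a star and 3 gene lists in colour. The dotted line marks equal change in the genotypes; GDF15 lies to its right at 3.37 and 2.17, ASNS and ADM2 lie below 0 on the vertical axis, and CDKN1A, ADM and SLC38A2 lie close to the line. Of all genes, 36 have a change beyond the axes and are not seen.

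Factors of the integrated stress response and the unfolded protein response, mainly transcription factors, mostly rose in deficient cells. Of 12, all tested, 10 rose and 1 fell in deficient cells (91.7% called, against 74.4% of all genes, of which 37% rose; median log2 change 1.11). BATF2 is counted among those that rose. It reached the minimum of the filter in 3 AA libraries of deficient cells, 2 AA libraries of intact cells and no PBS library. It thus passed only through AA-treated deficient cells, the group where it was high, so its calls carry no weight. In intact cells 3 rose and 4 fell (58.3%, against 69.8%; median -0.03). For the difference in AA effect 9 were higher and 1 lower in deficient cells (83.3%, against 44.6%; median 1.01). None of the 12 was called between the genotypes under PBS, where 0.275% of all genes were, so this says little about the 12. ATF3, a factor induced by many stresses, was the member that rose by more than 1 in both genotypes, by 2.35 in deficient cells and by 1.41 in intact cells, a difference of 0.94 (SE 0.12, edgeR adjusted p = 1.06e-06). It averaged 49.7 ± 3.28 CPM in AA-treated deficient cells, against 9.73 ± 0.941 CPM under PBS, and 26.7 ± 0.601 CPM in AA-treated intact cells, against 10.04 ± 0.455 CPM under PBS. ATF4, the central factor of the response, rose by 0.67 in deficient cells and by 0.17 in intact cells (difference 0.50, SE 0.04, edgeR adjusted p = 6.38e-09). ATF4 is largely controlled at translation, which these libraries do not measure. TRIB3, a pseudokinase that restrains ATF4 and CHOP, rose by 2.06 and by 0.31. CEBPG, a partner of ATF4, rose by 1.23 in deficient cells and fell by 0.70 in intact cells, to 110 and 27.1 CPM under AA, against 46.6 and 44.2 CPM under PBS. DDIT3, which encodes CHOP, rose by 1.81 in deficient cells. In intact cells its log2 difference was -0.26 (edgeR adjusted p = 0.0363), which missed the threshold without intact AA replicate 1 (0.139) or 3 (0.121) or intact PBS replicate 2 (0.0797) or 3 (0.108). ATF5, a factor of the mitochondrial unfolded protein response, fell by 1.66 in deficient cells and by 1.28 in intact cells, and CEBPD did not pass the test in either genotype.

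A list of genes around eIF2 included genes that rose and genes that fell. It held the kinases that phosphorylate eIF2 and the relay that reports mitochondrial stress to them. It also held phosphatase subunits, the eIF2 subunit EIF2S1 and subunits of eIF2B, so the counts are not those of the kinases and relay alone. Of 16 genes, all tested, 7 rose and 7 fell in deficient cells (87.5%, against 74.4% of all genes; median -0.01), and 8 rose and 3 fell in intact cells (68.8%, against 69.8%; median 0.11). PPP1R15A (GADD34), the subunit that brings the phosphatase to eIF2, rose by 2.13 in deficient cells and by 1.43 in intact cells (difference 0.70, SE 0.07, edgeR adjusted p = 3.04e-08). The constitutive subunit PPP1R15B fell by 0.94 and by 1.25. OMA1, the mitochondrial protease at the head of the relay, rose by 0.83 in deficient cells and by 0.90 in intact cells, with no difference called (-0.08, SE 0.11). Its substrate DELE1 rose by 0.61 in deficient cells. In deficient cells all 4 eIF2 kinases fell, with EIF2AK1 (HRI) at -0.21, EIF2AK2 (PKR) at -0.91, EIF2AK3 (PERK) at -0.68 and EIF2AK4 (GCN2) at -0.52 on the log2 scale. In intact cells EIF2AK1 rose by 0.20, EIF2AK2 fell by 0.41, and EIF2AK3 and EIF2AK4 did not pass the test.

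Target genes of ATF4 and CHOP, the set with which GDF15 is usually grouped, mostly rose in deficient cells. Of 32, all tested, 29 rose in deficient cells and 3 fell, against 37% up and 37.4% down over all genes, the median log2 change being 1.31. In intact cells 12 rose and 12 fell, with a median of -0.04, where GDF15 had 2.17. That is 75% called, near the 69.8% of all genes, of which 34.5% rose and 35.2% fell. In the test of the difference 29 were higher and 1 was lower in deficient cells (93.8%, against 44.6% of all genes), with a median of 1.16, beside 1.20 for GDF15. ASNS, asparagine synthetase, measured 373.7, 357.8 and 367.9 CPM in AA-treated deficient cells, against 52.7, 63.5 and 57.3 CPM in PBS-treated deficient cells. In intact cells it measured 42.7, 51.8 and 47.3 CPM under AA, against 57.3, 58.8 and 58.8 CPM under PBS. Its effects were 2.66 (edgeR adjusted p = 3.14e-20) and -0.30 (edgeR adjusted p = 0.000185), and every AA library of deficient cells lay above and every AA library of intact cells below its PBS libraries. How many of all genes were separated in this way was not counted. On FPKM the value in intact cells was -0.15 with pseudocount 1 and -0.16 with 0.1 and was not called (limma adjusted p = 0.0871 and 0.0876, and 0.137 without the filter). The tRNA ligase genes CARS1 and AARS1 rose by 1.88 and 1.40 in deficient cells and had log2 differences of 0.05 (SE 0.04) and -0.00 (SE 0.03) in intact cells. PSAT1, of serine synthesis, rose by 1.59 and by 0.13. SLC38A2, a transporter of neutral amino acids, rose by 1.70 in deficient cells and by 1.87 in intact cells and was the 1 member lower for the difference (-0.17, SE 0.04, edgeR adjusted p = 0.000433). SLC38A2 averaged 2474 CPM in AA-treated deficient cells, against 763 CPM under PBS, and 2722 CPM in AA-treated intact cells, against 745 CPM under PBS.

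Other transcription factors linked to the GDF15 promoter included several that rose in both genotypes. Of 20, all tested, 12 rose and 8 fell in deficient cells (100%, against 74.4% of all genes; median 0.31), and 6 rose and 10 fell in intact cells (80%, against 69.8%; median -0.08). For the difference in AA effect 12 were higher and 2 lower in deficient cells (70%, against 44.6%), and none was called between the genotypes under PBS, where 0.275% of all genes were. EGR1, an immediate early zinc finger factor, averaged 22.6 ± 0.780 CPM in AA-treated deficient cells, against 0.488 ± 0.217 CPM under PBS, and 17.5 ± 1.49 CPM in AA-treated intact cells, against 0.742 ± 0.210 CPM under PBS. It rose by 5.51 and by 4.54 on the log2 scale. The difference between those effects was 0.97 (SE 0.36, edgeR adjusted p = 0.0333), and it missed the threshold without deficient PBS replicate 1 (0.0866) or 3 (0.129) or intact PBS replicate 2 (0.185). KLF4, a zinc finger factor reported to bind the GDF15 promoter, rose by 1.78 in deficient cells and by 0.94 in intact cells (difference 0.84, SE 0.11, edgeR adjusted p = 2.67e-06), to 35.6 and 22.5 CPM under AA, against 10.3 and 11.7 CPM under PBS. KLF5 rose by 1.32 and by 1.05. JUN, a subunit of AP-1, rose by 0.66 in deficient cells and by 1.20 in intact cells, a smaller effect in deficient cells (difference -0.54, SE 0.07). NFE2L2 (NRF2), of the oxidative stress response, rose by 0.66 and by 0.37. HIF1A rose by 0.45 in deficient cells and had a log2 difference of -0.04 (SE 0.03) in intact cells. SP1, which binds GC boxes, fell by 0.37 and by 0.34, and NFKB1 fell by 0.37 and by 1.07.

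**Figure D3:**
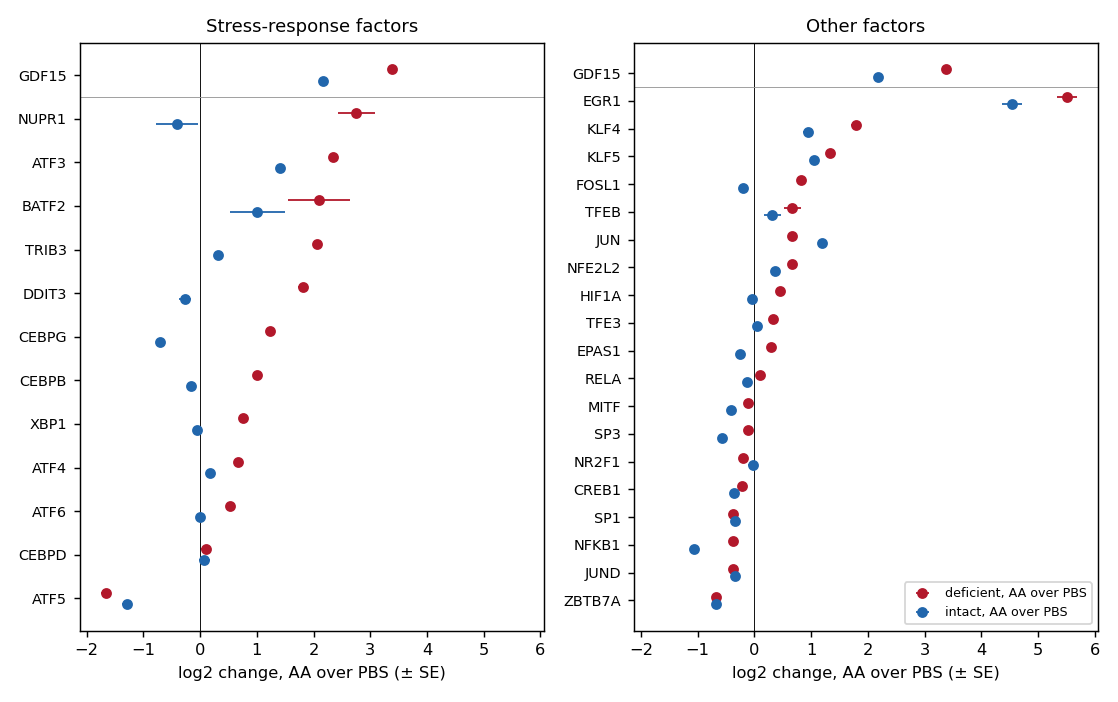
Log2 change under AA (horizontal axis, with SE bars) in deficient cells (red) and intact cells (blue) for GDF15, for the 12 factors of the integrated stress and unfolded protein responses (left) and for 19 other factors linked to the GDF15 promoter (right). ATF3, ATF4, EGR1, KLF4, KLF5, JUN and NFE2L2 are among the genes that lie above 0 in both genotypes, as GDF15 does. CEBPG lies at 1.23 in deficient cells and -0.70 in intact cells. BATF2 passed the filter only through AA-treated deficient cells, where it was high.

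Target genes of p53 moved in both directions in both genotypes. Of 28 listed, 26 passed the filter. In deficient cells 12 rose and 8 fell (76.9%, against 74.4% of all genes; median 0.20), and in intact cells 14 rose and 8 fell (84.6%, against 69.8%; median 0.23). In the test of the difference 6 were higher and 6 lower in deficient cells (46.2%, against 44.6%; median -0.10). CDKN1A, which encodes the cell cycle inhibitor p21, measured 113.1, 116.1 and 121.8 CPM in AA-treated deficient cells, against 28.3, 27.1 and 24.5 CPM in PBS-treated deficient cells. In intact cells it measured 113.2, 104.7 and 112.0 CPM under AA, against 25.4, 25.2 and 23.98 CPM under PBS. It rose by 2.13 in deficient cells (edgeR adjusted p = 8.99e-19) and by 2.15 in intact cells (edgeR adjusted p = 4.32e-18). The effects differed by -0.01 with an SE of 0.08 (edgeR adjusted p = 0.922), where GDF15 had a difference of 1.20. DDB2, a DNA damage sensor, rose by 1.21 and by 0.82, and GADD45A, a growth arrest gene that ATF4 also induces, rose by 1.43 and by 0.31. CCNG1, cyclin G1, had a log2 difference of 0.01 (SE 0.04) in deficient cells and rose by 0.61 in intact cells, and SESN1, sestrin 1, fell by 0.78 in deficient cells and did not pass the test in intact cells.

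The genes whose level followed GDF15 most closely were picked by the root mean square difference from GDF15 over the 12 libraries, in log2 CPM centred on each gene's own mean. The 10 nearest of 12518 candidates were ULBP1 at 0.45, SDSL at 0.47, ETV1 at 0.48, ERRFI1 at 0.49, TSC22D3 at 0.51, SMC1B and ETV5 at 0.52, DHRS3 at 0.53, PCSK1 at 0.55 and DUSP6 at 0.56. The next gene stood at 0.56, only 4 genes lay within 0.5, 311 lay within 1, and the median over all candidates was 1.52. None of the 10 was among the 10 nearest by Pearson r, so the choice of measure sets which genes are named. The points share library and depth.

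ULBP1, a ligand of the natural killer cell receptor NKG2D, averaged 15.8 ± 0.645 CPM in AA-treated deficient cells, against 1.87 ± 0.411 CPM under PBS, and 3.98 ± 0.360 CPM in AA-treated intact cells, against 1.76 ± 0.363 CPM under PBS. TSC22D3 (GILZ), a glucocorticoid-induced leucine zipper protein, averaged 69.2 CPM in AA-treated deficient cells, against 11.3 CPM under PBS, and 24.6 CPM in AA-treated intact cells, against 11.7 CPM under PBS. Among the others, ETV1 and ETV5 are ETS transcription factors, and DUSP6 and ERRFI1 dampen ERK and EGF receptor signalling. ERRFI1 had the highest level of the 10, with 117.8 ± 0.458 CPM in AA-treated deficient cells, against 18.0 ± 1.42 CPM under PBS, and 81.1 ± 2.84 CPM in AA-treated intact cells, against 18.3 ± 1.72 CPM under PBS. DHRS3, a retinaldehyde reductase, had the largest ratios of the 10, at 10.6 in deficient cells and 7.02 in intact cells. The ratio of deficient to intact cells under PBS was between 0.91 and 1.74 for these 10 genes, and 1.40 for GDF15. RefSeq windows were found for 8 of the 10, and 7 of these held a GC box, 2 the EGR1 element and 1 each the TATA box, the cyclic AMP element, the antioxidant response element and the p53 decamer.

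**Figure D4:**
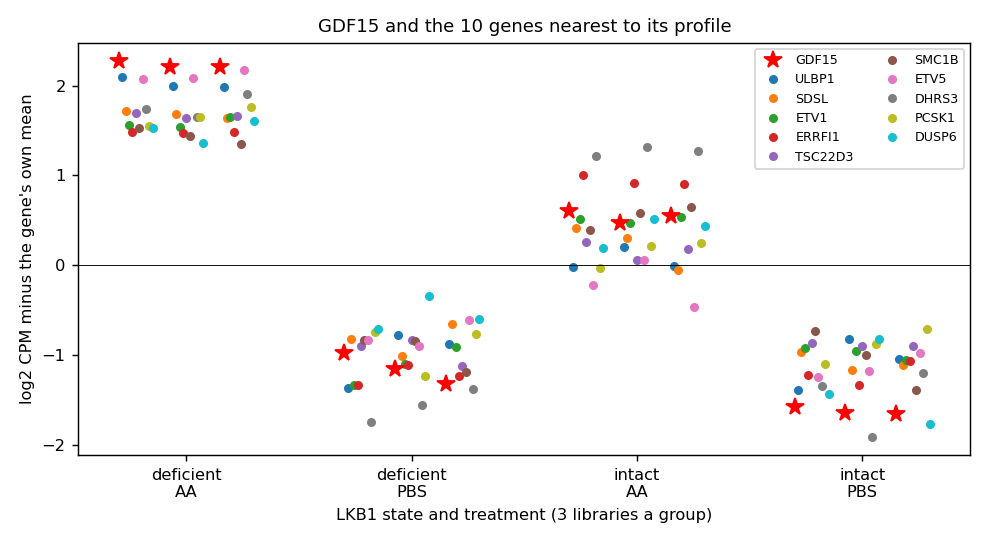
GDF15 (red stars) and the 10 genes nearest to its profile, as log2 CPM minus each gene's own mean over 12 libraries (vertical axis), by LKB1 state and treatment; each point is 1 gene in 1 library. GDF15 lies highest of the 11 in AA-treated deficient cells, and the points of AA-treated intact cells spread above and below it.

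Genes around GDF15 on chromosome 19 were called at shares near those of all genes under AA in deficient cells. Of the 5 nearest tested genes on each side, 7 of 10 had a call in deficient cells (5 rose and 2 fell), against 74.4% of all genes, and 9 of 10 in intact cells (7 rose and 2 fell), against 69.8%. None was called between the genotypes under PBS, where 0.275% of all genes were. For the difference in AA effect 3 of 10 were called, against 44.6% of all genes. LSM4, a spliceosomal protein, had the larger effect in deficient cells, by 0.22, and RAB3A and PGPEP1 had the smaller effect there, by -1.56 and -0.51. PGPEP1, which ends upstream of GDF15 on the same strand, averaged 15.6 CPM in AA-treated deficient cells, against 13.8 CPM under PBS (log2 difference 0.17, edgeR adjusted p = 0.108), and 17.2 CPM in AA-treated intact cells, against 10.8 CPM under PBS (0.68, edgeR adjusted p = 2.09e-06). SSBP4, the nearest on the other side, rose by 0.27 in deficient cells and by 0.35 in intact cells. IQCN is counted above among the genes that rose in both genotypes, but it reached the minimum of the filter in AA libraries and in no PBS library. Its calls therefore carry no weight, and its levels are given without a test. IQCN stood at 2.77 CPM in AA-treated deficient cells, against 0.142 CPM under PBS, and 4.45 CPM in AA-treated intact cells, against 0.243 CPM under PBS.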

How the data were processed

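Poly(A) RNA of 12 A549 samples was sequenced, per the labels' protocols. Per the submitters' processing notes the tools were RSEM, HISAT2 2.1.0, StringTie 1.3.1, Bowtie2 2.2.8 and fastp 0.18.0; the sources used here give no roles, genome build or strand use. The authors deposited estimated counts, with decimals in about 11% of values, and FPKM per gene. Depth was 16055534 to 20306129 estimated counts per library.

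Estimated counts were rounded and fitted with edgeR 4.0.16 in R 4.3.3 (TMM, filterByExpr with a minimum count of 10, quasi-likelihood test, 12718 of 20323 genes), all 12 libraries in 1 fit, with Benjamini-Hochberg adjustment over all tested genes and a threshold of 0.05. SE is the log2 change divided by the square root of F. Log2 CPM used a prior count of 2. Alternatives of the edgeR fit were RLE factors, library size only, no filter, a replicate block, only the libraries compared, and each library left out. A further minimum change of 1 on the log2 scale was also set. DESeq2 1.42.0 was run with its own size factors and test. Limma 3.58.1 was run on log2(FPKM + 1), with and without a filter, and on log2(FPKM + 0.1).

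GDF15, the 9 gene lists and the markers were chosen with earlier results of these data known. Lists of at most 20 genes could be named in full. From longer lists the text names the 4 called genes of smallest p in deficient cells and for the difference, and the most abundant gene not called; genes of any other kind were chosen after their values were seen. Counts cover the whole lists, of which 2 members are not reported here. Simulated data for AA against PBS in deficient cells (12566 genes) held changes of 0.25, 0.5, 1 and 2 on the log2 scale. The fit recovered 52%, 78%, 90% and 98% of these changes in this order, with 8 false calls among 167. The measured data gave 9465 calls for this comparison. Recovery and false calls with that many genes called were not tested.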

Additional observations from a re-analysis of the deposited data

Results flagged for a closer look

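Effects of AA that differed between deficient and intact cells were looked at again. By edgeR's quasi-likelihood test of the difference itself, 5673 of all tested genes had an AA effect that differed between the genotypes (44.6%). In the lists around GDF15 this held for 4 of 18 tested TGF-beta superfamily ligands (22.2%), 10 of 12 factors of the integrated stress and unfolded protein responses (83.3%), 14 of 20 other factors linked to the GDF15 promoter (70%), 30 of 32 targets of ATF4 and CHOP (93.8%) and 12 of 26 targets of p53 (46.2%). The p53 share lies at that of all genes and the TGF-beta share below it. The TGF-beta count includes INHBE, which passed the filter only through AA-treated deficient cells. The 12 stress-response factors include BATF2, which passed only through the same group.

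Of 139 tested list members reported here, 21 (15.1%) were called in opposite directions in the genotypes and for the difference, as were 751 of all tested genes (5.91%). The lists were chosen with earlier results of these data known. Higher in deficient cells and lower in intact cells under AA were ADM2 with a log2 difference in AA effect of 3.91, ASNS with 2.97, DDIT3 with 2.07, STC2 with 2.06, CEBPG with 1.94 and ALDH1L2 with 1.94. The same held for GARS1 with 1.41, SLC7A11 with 1.25, CEBPB with 1.15, IL6 with 1.13, VLDLR with 1.06, FOSL1 with 1.03 and SLC3A2 with 1.03. Smaller differences of this kind were found for XPOT at 0.905, TNFRSF10B at 0.844, METRNL at 0.601, EPAS1 at 0.535 and RELA at 0.23. Lower in deficient cells and higher in intact cells were MMP14 with -0.861, GDF11 with -0.671 and EIF2AK1 with -0.413. GDF15 was higher under AA in both genotypes and so is not among them.

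On log2(FPKM + 1) GDF11 had 0.28 in deficient cells (limma adjusted p = 0.0166) and a difference of -0.019 (limma adjusted p = 0.924), so its opposite direction was not found there, and its edgeR call in deficient cells was also lost by DESeq2, without the filter, with library size only and with only the libraries compared. The calls of MMP14, ADM2, IL6, CEBPB, FOSL1 and ASNS in intact cells were lost on log2(FPKM + 1), at limma adjusted p = 0.0757, 0.151, 0.195, 0.0547, 0.197 and 0.0871 in this order. DESeq2 lost those of IL6, FOSL1 and DDIT3 in intact cells (DESeq2 adjusted p = 0.0545, 0.0847 and 0.0742). The DDIT3 call there was also lost with only the libraries compared, and the DDIT3 and VLDLR calls there on log2(FPKM + 1) without the filter.

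For 8 of these genes 1 of the opposite calls rested on single libraries, and the edgeR adjusted p without them was as follows. The MMP14 value in intact cells was lost without intact AA replicate 1 (0.0925) or 3 (0.0588) or intact PBS replicate 1 (0.125). The ADM2 value there was lost without intact AA replicate 2 (0.0853) or 3 (0.0901) or intact PBS replicate 1 (0.0707) or 2 (0.0526). The IL6 value there was lost without intact AA replicate 1 (0.0555) or 3 (0.156) or intact PBS replicate 1 (0.0585) or 2 (0.211). The DDIT3 value there was lost without intact AA replicate 1 (0.139) or 3 (0.121) or intact PBS replicate 2 (0.0797) or 3 (0.108). The CEBPB value there was lost without intact AA replicate 1 (0.153) or 2 (0.102) or intact PBS replicate 1 (0.0617) or 2 (0.0731). The FOSL1 value there was lost without intact AA replicate 2 (0.0664) or 3 (0.0671) or intact PBS replicate 2 (0.134). In deficient cells the GDF11 value was lost without AA replicate 2 (0.0645) or 3 (0.126) or PBS replicate 2 (0.116) or 3 (0.0807). The RELA value in deficient cells was lost without AA replicate 2 (0.057) or PBS replicate 3 (0.132).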

How the results depend on the processing

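GDF15 kept its direction in every comparison under all alternatives run. Its log2 difference under AA in intact cells was 2.08 with limma on log2(FPKM + 1), with or without the filter, against 2.17; the added constant compresses low values. With each library left out it ran between 3.29 and 3.46 for AA in deficient cells, 2.14 and 2.204 for AA in intact cells, 1.12 and 1.29 for the difference in AA effect, 0.40 and 0.57 between genotypes under PBS, and 1.66 and 1.72 under AA. A further minimum change of 1 on the log2 scale, which by construction calls fewer genes, left 1838, 1287 and 450 genes for AA in deficient cells, AA in intact cells and the difference, and 6 and 590 between genotypes under PBS and under AA. In the first 3 of these comparisons, in this order, it left 3, 4 and 1 TGF-beta ligands, 7, 2 and 5 stress-response factors, 3, 4 and 1 other factors, 20, 2 and 19 targets of ATF4 and CHOP, and 6, 2 and 3 p53 targets. Between genotypes under PBS, 111 genes were called without the filter, 54 by DESeq2, 5 and 5 on FPKM with either pseudocount, 4 on FPKM without the filter, and between 6 and 43 with each library left out. TGF-beta ligands called on FPKM with either pseudocount were 3 and 3 in intact cells and 1 and 1 for the difference, and 2 to 5 for the difference with each library left out. Changes in deficient cells that reversed on FPKM were those of GDF11 (0.28, 0.33 and 0.28 with pseudocount 1, 0.1 and 1 without filter), SP3 (0.021, 0.022 and 0.021) and CREB1 (0.092, 0.10 and 0.092); the cause was not tested. Of 6516 alternative values for 316 values of listed genes, 6297 kept direction and call and 210 lost the call.

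Replicate numbers did not pair the libraries: correlations of same-numbered deviations ran between -0.094 and 0.054, and 1 of 12 libraries correlated best with its own number. With the replicate block 9402, 8776, 5554, 32 and 7402 genes were called, against 9465, 8872, 5673, 35 and 7501, and GDF15 had 3.38, 2.17 and 1.21 for the AA effects and their difference. Depth limits the low genes: a transcript below 3 expected counts could go unseen in a single library, and INHBE, ADM2 and PCSK4 rest on few counts per library. GFRAL was at 0 in all 12 libraries, for which the limit per library is lower.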
